A study of Drosophila melanogaster with 82 samples.

Results

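The transcripts of 3 genes of Drosophila melanogaster were followed across 7 tissues and 2 foods: FBtr0071349 of fend (forked end), FBtr0082231 of sle (slender lobes) and FBtr0076213 of NaPi-III (also dPit). They are 3 of the 16637 transcripts on the array, and their 24 probes, 8 each, are among 132998 transcript probes. All 3 were chosen because their levels were already known to be lower on restricted food in these same arrays. The diet differences below are therefore a description without a test, while the tissue levels and the joint variation of pools within a group did not enter the choice.

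The product of fend acts in motor axon guidance in the fly embryo, where growing axons must find and leave the nerve for their target muscle. The product of sle is a nuclear protein needed for the organisation of the nucleolus, the site of ribosomal RNA synthesis and ribosome assembly, and the gene is named for the thin mushroom body lobes of mutant brains. NaPi-III codes for a type III sodium-phosphate cotransporter of the PiT (SLC20) family, whose members carry inorganic phosphate into the cell.

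The study measured ribosome-bound messenger RNA in adult females on restricted food (DR, 0.5% yeast extract) and on rich food (AL, 5% yeast extract). All flies, on both foods, carried UAS-RpL13A-His6FLAG, a tagged ribosomal protein, and FLAG beads drew the tagged ribosomes with their bound messages from homogenised flies. The drivers that switched the tag on were S106-GS-GAL4 for fat body, NGT-GAL4 for germ line, MYOIA-GAL4 for gut, HAND4.2-GAL4 for heart, MHC-GAL4 for muscle, C155-GAL4 for neuron and C42-GAL4 for tubule. Flies raised on stock food went onto either food within 2 to 3 days of eclosion, stayed there for 10 days and were 13 days old at collection.

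A pool held about 100 females, or 200 for the neuron line, and each of the 82 arrays holds 1 pool. The heart AL and neuron AL groups had 5 pools, and each of the others had 6. A tissue is here what its driver marks in a homogenate of whole flies. S106-GS-GAL4 is a GeneSwitch driver, which needs an inducing drug, and the labels used here name none. In pooled material, fewer cells of a type and less of a message per cell cannot be told apart. The tissue markers could not be looked up, since the gene table used here pairs none of the 35 marker symbols with a transcript of the array, so the tissue labels were not checked against them.

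Values are log2 probe intensities, averaged over the 8 probes of a transcript. Within a tissue they are on that tissue's own deposited scale, which serves for comparing foods. Each SE of a diet difference rests on a variance of the transcript pooled over all 14 groups. It therefore does not follow the spread of the pools in a single tissue. All 3 transcripts lay above the 95th percentile of the random-sequence control probes on 82 of 82 arrays, by at least 1.42 for fend, 2.73 for sle and 3.16 for NaPi-III on the log2 scale. Both probes of fend at positions 219 and 367 of the transcript were near that limit, above it on 70 and 77 of 82 arrays. Each of the 3 genes has 2 transcripts in the gene table, so a probe may also read the other one.

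The axon guidance gene fend was lower on DR than on AL in 7 of 7 tissues, with a mean difference of -0.87 on the log2 scale (SE 0.07), or 1.83-fold lower. A difference below 0 in all 7 tissues was found for 15.3% of all transcripts. Muscle and tubule had the 2 largest falls, and neuron, where the transcript was abundant on either food, the smallest. The DR pools lay wholly below the AL pools in 3 tissues, fat body, muscle and tubule. Of all transcripts, 19.8% were separated in this direction in at least 3 tissues.

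In muscle, the 6 DR pools had fend levels with a lowest value of 8.99, a median of 9.47 and a highest of 9.64, against 10.91, 11.08 and 11.22 in the 6 AL pools. The highest DR pool thus lay well below the lowest AL pool, and the AL pools were tightly grouped. The difference was -1.66 (SE 0.18), or 3.15-fold lower on DR. The median of all transcripts was at 0.07, and that of transcripts of a similar level in muscle (10 equal classes of level were used) at -0.32. In this tissue 18.2% of all transcripts had every DR pool below every AL pool.

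In tubule, fend had a lowest, median and highest level of 9.23, 9.53 and 10.00 in DR pools, against 10.84, 11.04 and 11.97 in AL pools. The groups did not overlap, and AL pool 4 stood above the other AL pools, of which the next was at 11.12. The difference was -1.59 (SE 0.18), or 3.01-fold lower, and -1.43 without that pool. Separated falls made up 15.2% of all transcripts in tubule.

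The arrays of the foods also differed as a whole in some tissues. Bright transcripts are here those in the upper middle level classes as a mean over tissues, and dim ones those in the lowest classes. The brightest transcripts were left out of this measure. The gap between bright and dim transcripts was smaller on DR with all DR pools below all AL pools in neuron (DR minus AL -0.43), heart (-0.56) and tubule (-0.15), and with overlapping pools in germ line (-0.80), muscle (-0.60) and gut (-0.11), while fat body was at 0.04. Over all transcripts, probes late in a transcript exceeded early ones by 0.29 on DR and 0.27 on AL in tubule and by 0.30 on DR and 0.25 on AL in heart, with the DR pools wholly above the AL pools in both. The part of these shifts in the values of the 3 genes was not tested. The median change of transcripts in the same level class ran from -0.43 in germ line to -0.10 in fat body for fend, from -0.17 in germ line to 0.01 in fat body for sle and from -0.34 in germ line to 0.04 in fat body for NaPi-III.

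Fat body also had separated fend levels, at 8.89, 9.41 and 10.00 (lowest, median and highest) in DR pools against 10.03, 10.14 and 10.63 in AL pools. The gap between the groups was narrow here, as DR pool 6 almost reached the lowest AL pool, and it closed when the probe at position 60, 219, 641 or 867 was left out. The difference was -0.82 (SE 0.18), and 11.1% of all transcripts were separated and lower in this tissue.

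The germ line had the widest spread of fend on DR food. Its DR pools had a lowest level of 10.62, a median of 11.36 and a highest of 12.56, against 12.29, 12.52 and 12.70 in AL pools. DR pools 5 and 6, at 12.22 and 12.56, lay near or among the AL pools, while the other 4 were well below. The difference was -0.98 (SE 0.18), and transcripts of the same level class had a median of -0.43. That SE is pooled over all groups, while the SD here was 0.74 in DR pools and 0.16 in AL pools. For comparison, the SDs of fend on DR and AL were 0.15 and 0.18 in heart and 0.15 and 0.10 in neuron.

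Gut pools on DR split by level. The 3 lower ones, pools 1, 2 and 6, had fend levels of 9.42, 9.56 and 9.62, and the 3 higher ones, pools 3, 4 and 5, had 10.43, 10.39 and 10.43. The AL pools had 10.31, 10.56 and 10.98 as lowest, median and highest level, so that the higher DR pools reached the lower AL pools and the groups overlapped. The difference was -0.62 (SE 0.18), and -0.39 in a fit that gave each array a weight.

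Heart and neuron changed little in fend. Heart DR pools had 10.34, 10.53 and 10.67 as lowest, median and highest level, against 11.03, 10.83, 10.84, 10.77 and 10.52 in the 5 AL pools, a difference of -0.28 (SE 0.19). Centring each array on its median reduced this to -0.08. Neuron DR pools had 12.43, 12.60 and 12.82, against 12.84, 12.84, 12.85, 12.61 and 12.77 in AL pools, a difference of -0.16 (SE 0.19) in overlapping groups. Array weights brought the neuron difference to -0.08. Transcripts of the same level class had a median change of -0.39 in neuron and -0.26 in heart.

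The nucleolar gene sle was lower on DR in 6 of 7 tissues, with a mean difference of -0.68 (SE 0.08), or 1.60-fold lower. A difference below 0 in at least 6 tissues was found for 25.7% of all transcripts. Neuron and tubule had the 2 largest falls, followed by muscle, and in these 3 tissues the pools were separated, as in at least 3 tissues for 19.8% of all transcripts. In heart the difference in sle was smaller than its SE.

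In neuron, DR pools had sle levels of 12.23, 12.44 and 13.59 as lowest, median and highest, against 14.16, 14.24, 14.23, 14.08 and 14.09 in the 5 AL pools. The AL pools lay close together and above every DR pool, while DR pools 4 and 6, at 13.59 and 13.40, stood apart from the other 4 DR pools. The difference was -1.43 (SE 0.22), or 2.69-fold lower, against a median of -0.11 over all transcripts. Neuron was the tissue with the highest share of separated falls, 28.0% of all transcripts.

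In tubule, the DR pools had sle levels of 10.45, 10.67 and 11.00, against 11.52, 11.55 and 13.22 in AL pools (lowest, median and highest). AL pool 4 stood far above the other 5 AL pools, which reached 11.75. The difference was -1.18 (SE 0.21), or 2.27-fold lower, and -0.91 without AL pool 4, with the pools still separated.

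Muscle had sle levels of 12.34, 12.40 and 12.78 in DR pools against 13.03, 13.26 and 13.45 in AL pools (lowest, median and highest). DR pool 1 was the highest DR pool and lay below all AL pools. The difference was -0.78 (SE 0.21), or 1.72-fold lower.

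The other 4 tissues had overlapping sle levels. Fat body had 10.67, 10.99 and 11.90 in DR pools and 11.48, 11.55 and 11.99 in AL pools, a difference of -0.54 (SE 0.21), with 5 of 6 DR pools below every AL pool and DR pool 6 near the top of the AL range. Germ line had 13.32, 13.58 and 13.88 in DR pools and 13.79, 13.92 and 14.04 in AL pools, a difference of -0.32 (SE 0.21), with 4 of 6 DR pools below every AL pool.

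Gut pools split as they did for fend, with sle at 10.71, 10.99 and 11.18 in DR pools 2, 1 and 6 and at 12.12, 12.19 and 12.21 in DR pools 3, 4 and 5. AL gut pools had 11.65, 12.10 and 12.44, so that the higher DR pools lay inside the AL range. The difference was -0.55 (SE 0.21), and -0.19 with array weights. In heart, DR pools had 11.76, 11.89 and 12.26, against 12.09, 12.13, 11.87, 11.76 and 11.74 in AL pools, a difference of 0.02 (SE 0.22) that became 0.23 when arrays were centred on their medians.

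The phosphate transporter gene NaPi-III had the smallest fall of the 3, with a mean difference of -0.41 over the tissues (SE 0.07), or 1.33-fold lower. It was lower in 7 of 7 tissues, as were 15.3% of all transcripts, but in gut and heart by less than the SE. Its pools were separated in 2 tissues, tubule and neuron, and 31.4% of all transcripts were separated and lower in at least 2.

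In tubule, DR pools had NaPi-III levels of 10.88, 11.09 and 11.25, against 11.69, 11.85 and 13.22 in AL pools (lowest, median and highest). AL pool 4 again lay far above the other AL pools, which reached 12.15. The difference was -1.02 (SE 0.20), or 2.03-fold lower, and -0.80 without AL pool 4.

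In neuron, DR pools had NaPi-III levels of 13.31, 13.52 and 13.88, against 13.99, 13.95, 13.88, 13.98 and 13.94 in AL pools. The AL pools spanned little, and DR pool 6 came up to just below the lowest of them, so the separation was narrow. The difference was -0.39 (SE 0.20). Leaving out the probe at position 1709, 1873 or 1891, or using the 4 probes nearest the start of the transcript, ended the separation and brought the number of separated tissues to 1.

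Levels of NaPi-III overlapped in the other 5 tissues. Germ line DR pools had 12.44, 12.68 and 13.06, against 13.03, 13.23 and 13.32 in AL pools, and 5 of 6 DR pools lay below every AL pool. The germ line difference was -0.48 (SE 0.20), in a tissue where transcripts of the same level class had a median of -0.34 and 8.11% of all transcripts were separated and lower. Muscle DR pools had 11.90, 12.17 and 12.65, against 12.40, 12.75 and 12.88 in AL pools. Here DR pools 1 and 2 reached into the AL range, and the difference was -0.44 (SE 0.20), or -0.28 with arrays centred on their medians.

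Fat body DR pools had 10.74, 11.43 and 12.63, against 11.59, 11.85 and 12.38 in AL pools. DR pool 6 lay above every AL pool, and DR pool 3 was the lowest of all. The difference of -0.41 (SE 0.20) became -0.64 without DR pool 6 and -0.26 without DR pool 3. Gut DR pools had 11.63, 12.62 and 13.07, against 12.16, 12.69 and 12.88 in AL pools, with DR pools 3, 4 and 5 above every AL pool.

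The gut difference of -0.09 (SE 0.20) turned to 0.09 without DR pool 2, to 0.03 with arrays centred on their medians and to 0.21 with array weights. In heart, DR pools had 11.74, 11.84 and 12.13, against 12.14, 12.01, 11.83, 11.65 and 11.84 in AL pools, with a difference of -0.03 (SE 0.20) and 0.18 with centred arrays. Neither tissue thus gave NaPi-III a direction. Among all transcripts, 9.83% in gut and 26.9% in heart had every DR pool below every AL pool.

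**Figure D1:**
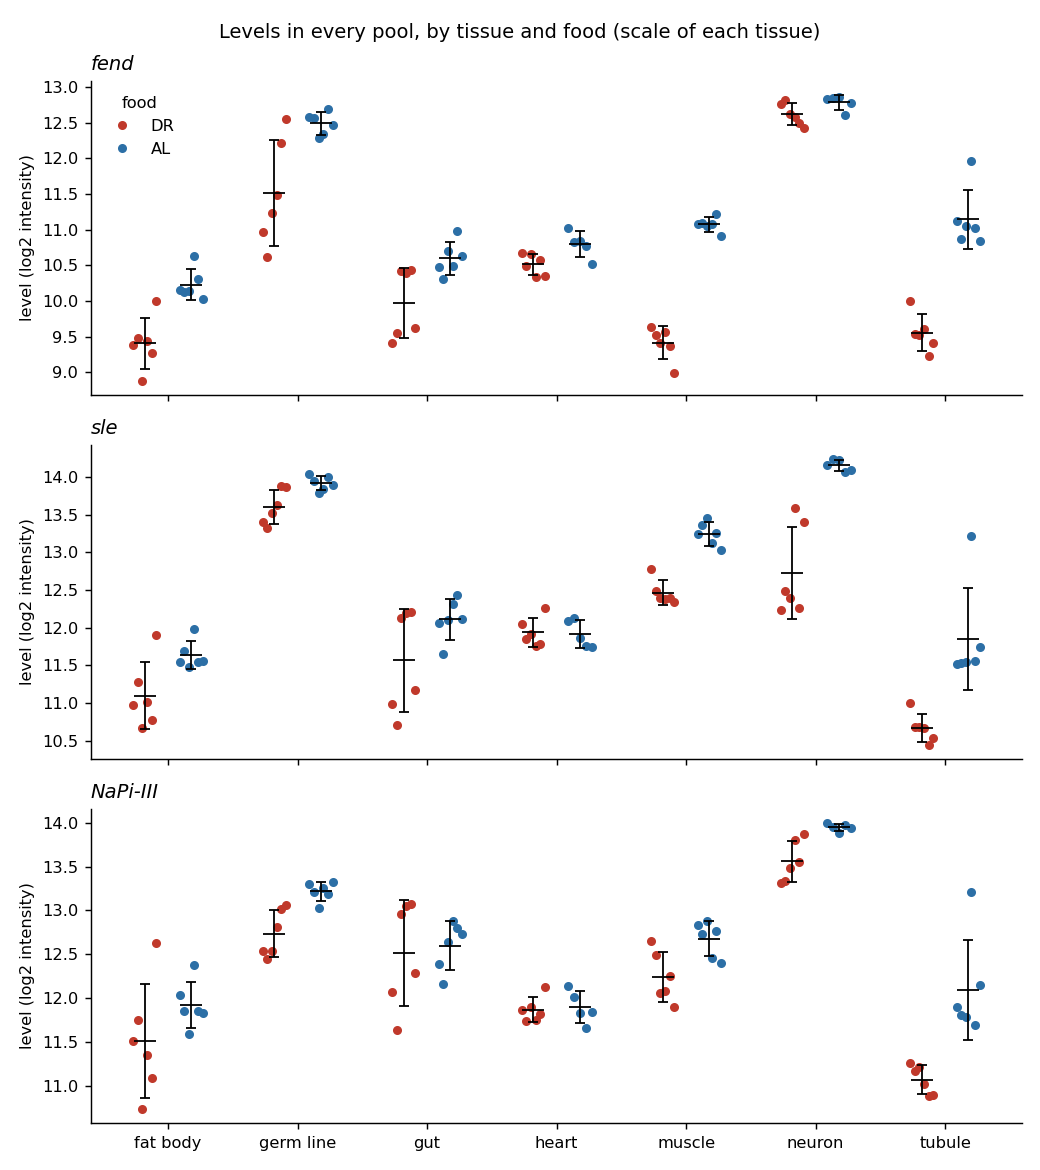
Level of fend, sle and NaPi-III in every pool (log2 intensity, mean of 8 probes, on each tissue's own scale) by tissue, with DR pools left of AL pools, each point a pool and the bar the group mean ± SD. The muscle pools of fend, the neuron pools of sle and the tubule pools of all 3 are separated, and AL pool 4 of tubule, at 11.97, 13.22 and 13.22, stands above its group in each panel.

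The single probes of each transcript moved alike in most tissues. For fend, 51 of 56 probe and tissue combinations were lower on DR, and all 8 probes were lower in 4 tissues, fat body, gut, muscle and tubule. For sle it was 52 of 56, with all 8 probes lower in every tissue but heart, where 4 were. For NaPi-III it was 50 of 56, with all 8 probes lower in every tissue but gut, with 6, and heart, with 4. Among transcripts with 8 probes, 19.5% had all of them lower in at least 4 tissues, 12.3% in at least 5 and 7.08% in at least 6.

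The size of the fall varied along fend. Averaged over the 7 tissues, its probes ranged from -1.47 at position 219 to -0.56 at position 708. The probes at positions 219 and 367 had the largest falls in muscle, -2.90 and -2.61, and in germ line, -1.90 and -1.84, and they are also the 2 that lay near the control limit on some arrays. The first probe, at position 60, was higher on DR in germ line (0.12) and heart (0.33) but lower in tubule (-1.80). As a result, the 4 earlier probes gave a larger muscle difference, -1.89, than the 4 later ones, -1.43.

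The probes of sle were closer to each other, from -0.86 at position 4199 to -0.54 at position 3542 as means over the tissues. Those in neuron ran from -1.91 to -1.15, and those in tubule from -1.39 to -0.89. The probes of NaPi-III ranged from -0.52 at position 1709 to -0.34 at position 1017. In gut its first 2 probes were higher on DR (0.14 and 0.27) and its other 6 lower, and in heart the 4 earlier probes averaged 0.06 and the 4 later ones -0.12.

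Across the 14 group means, any 2 probes of sle had a correlation of at least 0.971, while the lowest was 0.806 for fend and 0.794 for NaPi-III. These are descriptions over points that share the arrays and their scaling.

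**Figure D2:**
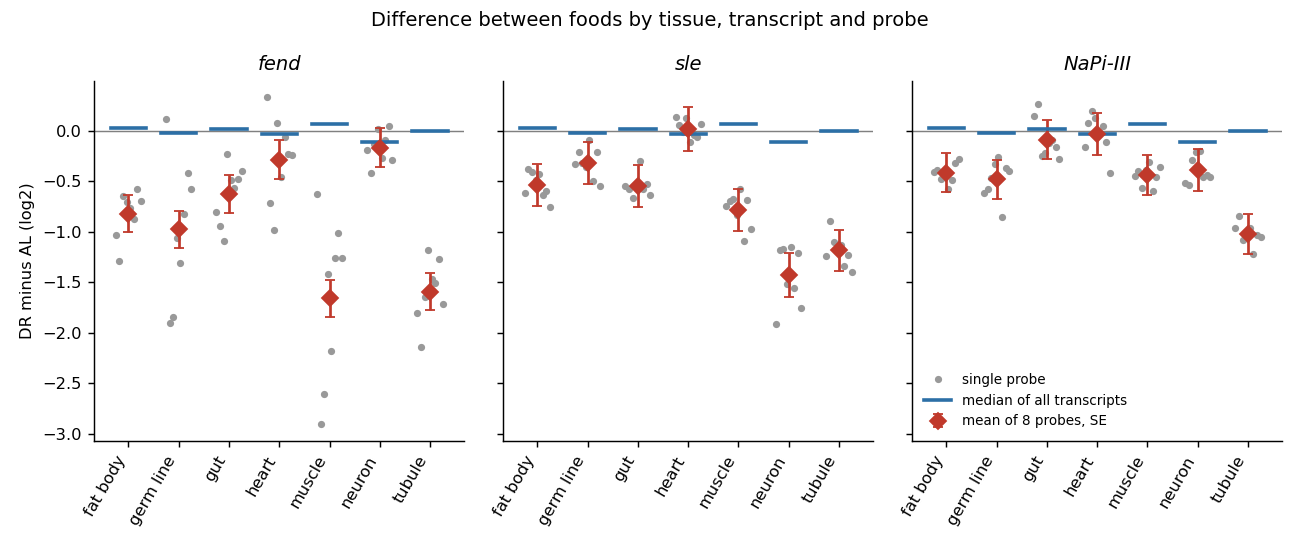
Difference in level, DR minus AL, by tissue (log2) for fend, sle and NaPi-III, with the mean of 8 probes as a diamond with its SE, single probes as grey points and the median of all transcripts as a line. The falls of fend run from -0.16 in neuron to -1.66 in muscle, those of sle reach -1.43 in neuron, and NaPi-III falls furthest in tubule, by 1.02.

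The order of the tissue differences thus varied among the 3 genes. Tubule was the one tissue with a separated fall in all of them. Muscle was separated too for fend and sle but had overlapping pools for NaPi-III. Neuron had the largest fall of sle and the smallest of fend. All 3 differences of a tissue come from the same pools and share their errors, and differences between tissues or genes in the size of the fall were not tested because the diet contrast chose the genes.

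Which tissues hold most of these messages was asked on a scale shared by all arrays, from a quantile normalization over the 82 arrays, with the mean of both foods as the level of a tissue. Levels differed between tissues in all 3 genes by limma's moderated F test, and so they did for 99.5% of all transcripts. Of all tissue pairs of all transcripts, 74.0% passed at an adjusted p below 0.05, the rule used below for a pair.

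For fend, neuron was highest at 12.19, followed by germ line at 11.67, heart at 11.09, tubule at 10.45, gut at 10.44, fat body at 10.30 and muscle at 10.23. The levels thus spanned 1.96 on the log2 scale, or 3.89-fold (moderated F 54.1, limma adjusted p = 2.18e-24), against a median span of 1.66 over all transcripts. Neuron exceeded germ line by 0.52 (SE 0.15, limma adjusted p = 0.00117), germ line exceeded heart by 0.57 (0.15, adjusted p = 0.000391), and heart exceeded tubule by 0.64 (0.15, adjusted p = 8.41e-05). No pair among tubule, gut, fat body and muscle passed, and all of the other 15 of 21 pairs did. The calls of neuron over germ line and of heart over tubule were lost on AL pools alone, and that of germ line over heart on DR pools alone.

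Food changed this order for fend. On DR pools alone muscle was the lowest of the 7 tissues, at 9.30 ± 0.27 (SD, n = 6), whereas on AL pools alone it ranked 4 of 7, at 11.15 ± 0.12 (SD, n = 6). Germ line averaged 11.02 ± 0.98 on DR and 12.31 ± 0.19 on AL (SD, n = 6 each), and neuron 12.10 ± 0.15 on DR (n = 6) and 12.27 ± 0.11 on AL (n = 5). On AL these 2 tissues lay within each other's spread, with germ line at the top.

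For sle, germ line was highest at 13.84, then neuron at 12.99, muscle at 12.97, heart at 12.49, gut at 11.87, fat body at 11.58 and tubule at 11.23. The span was 2.61, or 6.10-fold (moderated F 81.4, limma adjusted p = 1.32e-29), which was larger than that of 75.9% of all transcripts. Germ line exceeded neuron by 0.86 (SE 0.15, limma adjusted p = 3.81e-07). Neuron and muscle did not differ beyond their spread (0.02, adjusted p = 0.898), nor did gut and fat body (0.29, adjusted p = 0.061), and the other 19 of 21 pairs passed. The call of germ line over neuron was lost with arrays centred on their medians and on AL pools alone.

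Muscle exceeded heart by 0.47 in sle (SE 0.15, limma adjusted p = 0.00309) and heart exceeded gut by 0.62 (0.15, adjusted p = 0.000133). Fat body exceeded tubule by 0.35 (0.14, adjusted p = 0.0264). The first of these calls was lost on DR pools alone and the other two on AL pools alone, and that of fat body over tubule also with the later probes. Neuron took rank 2 on AL pools, at 13.77 ± 0.09 (SD, n = 5), but rank 4 on DR pools, at 12.20 ± 0.64 (SD, n = 6), below muscle and heart.

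For NaPi-III, neuron was highest at 13.32, then germ line at 12.90, muscle at 12.58, gut at 12.55, heart at 12.44, fat body at 11.88 and tubule at 11.53. The span was 1.79, or 3.45-fold (moderated F 39.8, limma adjusted p = 1.04e-20). Neuron exceeded germ line by 0.42 (SE 0.14, limma adjusted p = 0.0045) and germ line exceeded muscle by 0.32 (0.13, adjusted p = 0.026). The 3 pairs among muscle, gut and heart did not pass, with adjusted p from 0.352 to 0.839. On AL pools alone the calls of neuron over germ line and of germ line over muscle were lost, and the second also on DR pools alone, with arrays centred on their medians, with array weights and with the earlier probes.

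At the lower end of NaPi-III, heart exceeded fat body by 0.56 (SE 0.14, limma adjusted p = 0.000182) and fat body exceeded tubule by 0.35 (0.13, adjusted p = 0.0132). Both calls were lost on AL pools alone, and that of heart over fat body also with centred arrays. In all, 18 of 21 pairs passed. Tubule, the tissue with the largest fall of NaPi-III on DR, thus had its lowest level, and the same tissue was also the lowest in sle. With arrays centred on their medians in place of the quantile normalization, gut and muscle came before germ line for NaPi-III.

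**Figure D3:**
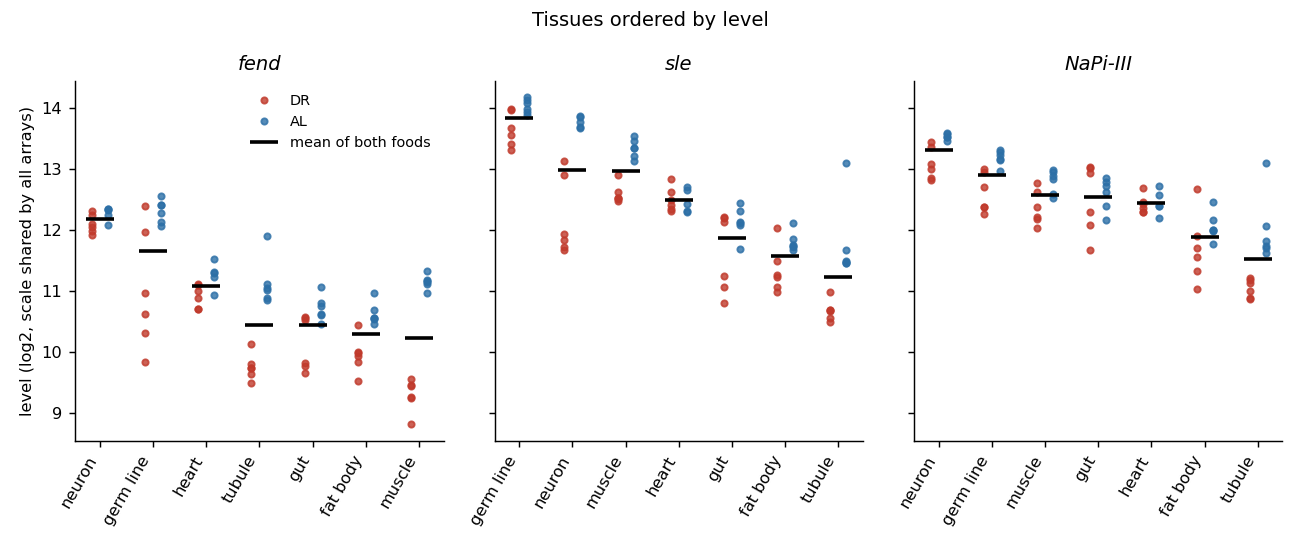
Level of fend, sle and NaPi-III by tissue (log2 intensity on the scale shared by all 82 arrays), tissues ordered by the mean of both foods, with DR pools left of AL pools. Neuron leads for fend (12.19) and NaPi-III (13.32) and germ line for sle (13.84), and muscle has the widest gap between the foods in fend.

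The pathway genes of axon guidance, nucleolus and phosphate transport could not be set beside the 3, since the gene table used here pairs 0 of 21, 0 of 20 and 0 of 19 of the listed symbols with a transcript. The transcripts with the most similar pattern were therefore found by their correlation over the 14 group means among 13353 transcripts above the control level, as a description. For fend they were FBtr0084881 and FBtr0070449, both at r = 0.967, where the 99th percentile of all transcripts was 0.842. For sle they were FBtr0082233 at 0.995 and FBtr0086110 at 0.994, against a 99th percentile of 0.96. For NaPi-III they were FBtr0073826 at 0.957 and FBtr0082073 at 0.945, against 0.826. None of the 6 is paired with a gene name in the table. All 6 had differences below 0 in all 7 tissues, with means from -0.90 to -0.51, as had 15.3% of all transcripts. The group means that picked them include the diet contrast, so their fall follows in part from the choice.

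Among the 3 genes themselves, sle and NaPi-III were most alike over the group means (r = 0.828), followed by fend and NaPi-III (0.766) and fend and sle (0.652). The points are the same 14 groups throughout and include the diet contrast, so these values carry no test.

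A separate question is whether pools of the same tissue and food vary together in the 3 genes, which does not use the diet contrast. Each pool's deviation from its group mean was compared over all 82 pools, with the p from 100000 two-sided permutations of pools within groups and adjusted over the 3 pairs. Deviations of sle and NaPi-III had a Pearson r of 0.891 and a Spearman rho of 0.877. For fend and NaPi-III r was 0.712 and rho 0.62, and for fend and sle r was 0.657 and rho 0.643. Each adjusted permutation p was 1e-05, the smallest that these permutations can give.

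Without the 2 pools farthest from the median of the first gene, r was 0.89 for sle and NaPi-III, 0.745 for fend and NaPi-III and 0.695 for fend and sle. Without tubule AL pool 4, r was 0.869, 0.675 and 0.609 in the same order. Within each of the 12 groups of 6 pools, r for sle and NaPi-III was above 0 in 12, from 0.499 to 0.99. Both pairs with fend were above 0 in 10 of 12 groups, and below 0 in heart DR and neuron DR. In neuron DR, r was -0.847 for fend and NaPi-III and -0.507 for fend and sle.

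Against the background of all transcripts, 0.174% had deviations that correlated with those of NaPi-III as highly as sle did, and 1.47% with those of sle as highly as NaPi-III did. For fend these shares were 3.4% at the value of NaPi-III and 6.52% at that of sle. From the other side, 4.28% correlated with NaPi-III as highly as fend did, and 8.69% with sle as highly as fend did. The main axis of within-group variation over all transcripts held 29.2% of it, and its r was 0.651 with fend but 0.262 with sle and 0.226 with NaPi-III.

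Messages that lead in neuron moved with the 3 genes in the other tissues. A set of 96 transcripts was at least 2-fold higher in neuron than in every other tissue on AL pools, none of them with a gene name in the table. It was picked on these arrays after their values were seen, so its values are described without a test. In the 71 pools of the other 6 tissues, within-group deviations of the set's mean had an r of 0.866 with sle (rho 0.751), 0.807 with NaPi-III (rho 0.697) and 0.802 with fend (rho 0.804). Without tubule AL pool 4 the r values were 0.827, 0.764 and 0.78 in the same order. The share of all transcripts that moved as closely with the set was not computed. A set leading in germ line, described below, was compared in the same way in the 70 pools outside germ line. There r was 0.55 with sle (rho 0.484), 0.523 with NaPi-III (rho 0.518) and 0.121 with fend (rho 0.0614).

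The mean of that neuron set was set beside the foods in the same way. In muscle it was 8.59 to 8.73 in DR pools and 8.95 to 9.33 in AL pools, a difference of -0.45. In tubule it was 8.18 to 8.25 in DR pools and 8.26 to 9.25 in AL pools, a difference of -0.26 that became -0.11 without AL pool 4. In heart it was 8.49 to 8.63 in DR pools and 8.65 to 8.86 in AL pools, a difference of -0.22. The pools did not overlap in these 3 tissues.

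The pools overlapped in germ line, with a difference of -0.25, in gut, with -0.12, and in fat body, with -0.10. With single pools left out, the gut value ran from -0.22 (without DR pool 5) to -0.0045 (without DR pool 1), and that of fat body from -0.21 (without DR pool 6) to -0.06 (without DR pool 1). Transcripts of the set that were lower on DR numbered 60 of 96 in muscle, 56 in tubule, 62 in heart, 60 in germ line, 51 in gut and 47 in fat body, or 62.5%, 58.3%, 64.6%, 62.5%, 53.1% and 49%. Of all transcripts, 44.5%, 50.8%, 52.6%, 50.9%, 47.7% and 47.3% were lower in the same order. In neuron itself, whose AL pools chose the set, it was 10.46 to 11.26 in DR pools and 11.15 to 11.45 in AL pools. The part of neuronal messages in the levels of the 3 genes in the other tissues was not tested.

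A set of 443 transcripts led in germ line by the same rule. Its mean was higher on DR in muscle, by 0.42, in heart, by 0.45, in fat body, by 0.27, and in gut, by 0.24. It differed by -0.02 in tubule, -0.03 in neuron and 0.05 in germ line itself. In fat body and tubule this mean lay below the average 95th percentile of the control probes. Of the set, 16.9% were lower on DR in muscle, 22.6% in heart, 23.9% in fat body and 24.2% in gut. In tubule it was 56.2% and in neuron 67.3%. Of all transcripts, 44.5%, 52.6%, 47.3%, 47.7%, 50.8% and 56.5% were lower in the same order.

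Tubule AL pool 4 stood apart from its group. Its correlations with the other 5 tubule AL pools over all transcripts were 0.965 to 0.974, against 0.994 to 0.997 among those. The mean of the neuron set was 9.25 in this pool and 8.26 to 8.47 in the others, and 65.6% of the 96 transcripts were higher there than in every other tubule AL pool, as were 37% of all transcripts. The tubule diet differences of all 3 genes are given above with and without it, while the tubule levels on the shared scale include it.

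**Figure D4:**
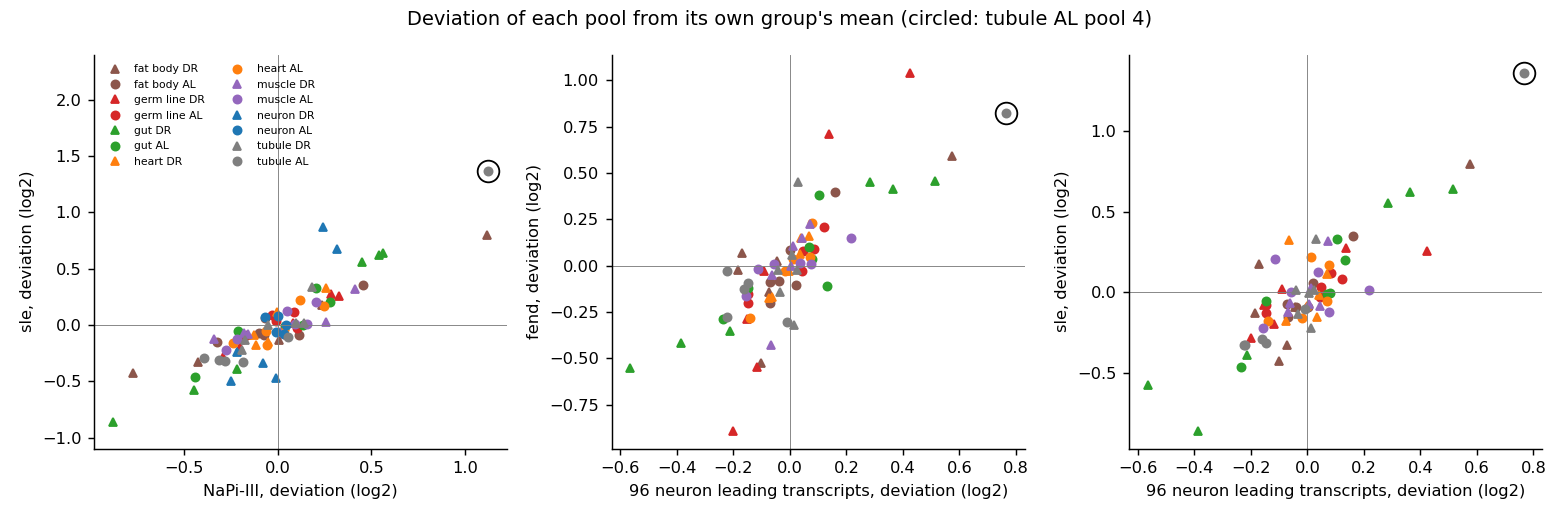
Deviations of each pool from the mean of its tissue and food (log2), with sle against NaPi-III in all 82 pools, and fend and sle against the mean of 96 neuron leading transcripts in the 71 pools of other tissues. Triangles are DR pools and circles AL pools, the ringed point is tubule AL pool 4, and the r values are 0.891, 0.802 and 0.866.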

How the data were processed

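Per the labels' protocols, pulled-down RNA was amplified, labelled with Cy3 and hybridised to single-colour NimbleGen arrays, with pulldown, amplification and labelling randomized across groups. Intensities of 137098 probes were deposited on a linear scale, 4100 of them for random-sequence controls. Sorted log2 values of the deposited intensities differ by at most 0.04 within a tissue and by up to 2.67 between tissues, so the arrays were quantile normalized within each tissue before deposit. The labels used here do not name the scanner, the background correction or the annotation. No 2 arrays were identical.

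Probes were averaged per transcript on the log2 scale, with no filter on low levels. A linear model of the 14 group means in limma 3.58.1 (R 4.3.3, 68 residual degrees of freedom before moderation) gave the diet differences and their SE on the deposited scale. Tissue levels used a quantile normalization over all 82 arrays, limma's moderated F test adjusted by Benjamini and Hochberg over 16637 transcripts, and the 21 tissue pairs adjusted over all transcripts and pairs together. Permutations of pools within groups and figures were done in Python 3.11.15 with numpy 2.4.6, scipy 1.17.1 and matplotlib 3.10.9. Tests are two-sided with a threshold of 0.05. On simulated data with 50 changed transcripts of each size among 16637, the F test recovered 78% at a log2 change of 0.5 and 98% at 1, with 8 false calls. The simulated noise was normal and independent between transcripts, and all tissues had the same mean apart from muscle in the changed transcripts. Real arrays share variation between transcripts, so these rates need not hold for them. A pool is a separate group of flies. The number of arrays limits the precision.

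Members and lists were chosen with earlier results of these data known. Named transcripts are the 3 members and, for each, the 2 most correlated over the 14 group means among transcripts whose mean exceeds the 95th percentile of the controls. Gene names come from RefSeq (Release 6 plus ISO1 MT, without its coordinates), where 16 transcripts had 1 gene, 28 several and 16593 none. Alternatives were other scalings, probe summaries, array weights, left-out probes and pools, and a block for the pool number.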

Additional observations from a re-analysis of the deposited data

Results flagged for a closer look

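Among the 42 groups of a gene, tissue and food, 4 held a pool whose distance to its nearest neighbour was above Dixon's 95% critical value for its group size. Chance gives about 1 in 20 such groups, but the groups are not independent, since the 3 genes are read from the same pools. Tubule AL pool 4 was the highest of its group in all 3 genes, at 11.97 for fend (nearest 11.12, ratio of gap to range 0.755), at 13.22 for sle (nearest 11.75, ratio 0.868) and at 13.22 for NaPi-III (nearest 12.15, ratio 0.702). Muscle DR pool 1 was the highest of its group in sle, at 12.78 (nearest 12.49, ratio 0.66).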

How the results depend on the processing

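Of 1788 recomputed values, 1772 kept direction and side of the threshold or moved by less than the spread of the pools (counts by at most 1.5 times). No F test or pooled correlation crossed its threshold, and 16 values moved further. A difference with overlapping pools could change sign within that spread and count as unmoved, as NaPi-III in gut did (-0.09 to 0.21 with array weights). Many of the values leave out a single pool, which can hardly shift a mean over 7 tissues that far. The mean difference over the 7 tissues lay between -0.99 and -0.76 for fend, -0.71 and -0.58 for sle and -0.44 and -0.31 for NaPi-III over the other scalings and probe summaries, and between -0.90 and -0.85, -0.71 and -0.64, and -0.44 and -0.38 with single pools left out. The number of tissues with separated pools was 2 to 4 for fend and 3 for sle (3 to 4 for either with pools left out). For NaPi-III it was 1 to 3, with the value 1 for the earlier probes alone and with the probe at position 1709, 1873 or 1891 left out, and 2 to 3 with pools left out. The number of tissue pairs that passed was 14 to 18 for fend, 15 to 20 for sle and 14 to 20 for NaPi-III (15, 19 to 20 and 17 to 18 with pools left out). Up to 3 called pairs of fend and up to 4 of sle and of NaPi-III lost their call under a single one of these settings, and up to 3, 2 and 2 gained one. Single tissues that moved by more than the spread of the pools were fend in muscle (-1.89 to -1.43), NaPi-III in germ line (-0.72 with array weights) and all 3 in heart with arrays centred on their medians. The array weights stopped before full convergence. With the pool number as a block the mean differences were -0.86 for fend, -0.71 for sle and -0.43 for NaPi-III, and 15, 19 and 18 tissue pairs passed, with 0 pairs lost and 0 gained for each gene. Same-numbered pools of a tissue had correlations of deviations from -0.443 to 0.773 (median 0.128, 21 of 40 over 0.1). Tissue medians ran from -0.003 in neuron to 0.30 in germ line. Whether the numbers pair the pools cannot be told from these mixed values. The cause of these shifts was not tested.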
